A study of Mus musculus with 6 samples.

Results

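The 10 genes described here encode the light-response cascade of cone photoreceptors: the opsins Opn1sw and Opn1mw, the transducin subunits Gnat2, Gnb3 and Gngt2, the phosphodiesterase subunits Pde6c and Pde6h, the channel subunits Cnga3 and Cngb3, and the arrestin Arr3. They were taken by symbol from a table of 24062 genes, and all 10 were found and passed the filter on low counts. The data are RNA-seq counts from whole retina at postnatal day 30, with 3 libraries of wild type mice (WT) and 3 of rd10 mice, both of the C57Bl6/J strain per the labels. Each sample held 2 frozen retinas. The rd10 line carries a missense allele of Pde6b, which encodes a catalytic subunit of the rod phosphodiesterase, and is used as a model in which rods die first and cones later. No source says that replicates are different animals. Each group held libraries with Xist and libraries with Y-linked counts, which cannot come from the same animal. Libraries of the same kind may do so, and each p-value covers only the spread among these samples, which may be partly technical.

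In a cone, an opsin that has absorbed a photon activates transducin, transducin relieves the inhibition of the phosphodiesterase, cGMP falls, and the cyclic nucleotide gated channel in the outer segment closes. Arrestin then binds the phosphorylated opsin and ends the response. Rods run the same cascade with their own subunits, each from a separate gene. In the mouse most cones make both opsins, with the short-wave pigment dominant in ventral retina and the middle-wave pigment in dorsal retina.

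Libraries are named as in the count table (WT-1, WT-4 and WT-23 for wild type, Rd10-3, Rd10-4 and Rd10-5 for rd10). WT libraries totalled 13573035 to 15818918 counts, rd10 libraries 10923556 to 12171088, and the lowest count of any of the 10 genes in any library was 305 (Cnga3 in WT-1). Together, 9 rod counterparts of the cone genes other than the opsins made up 5.17 ± 0.18% of a WT library and 1.71 ± 0.30% of an rd10 library (mean and SD of 3 libraries each). Levels are given as CPM, counts relative to library size after TMM scaling, which sets libraries equal for the bulk of genes. WT-1, WT-23 and Rd10-4 held Xist at 69.9 to 180 CPM and next to no Y-linked counts, whereas WT-4, Rd10-3 and Rd10-5 held 128 to 150 CPM of 4 Y-linked genes, so the kinds of library are unequally spread over the groups. WT-1 and WT-23 lay at opposite ends of the second principal component (41.1 and -27.7), and their counts differed from each other more than those of any other pair of one group (chi-square per degree of freedom of 57.8, against 7.36 to 22.1). Markers of retinal cells were all detected, and beside the microglial genes given with Gngt2, 4 of 6 Müller glia markers rose (summed 6420 to 7020 CPM in WT, 9670 to 11400 in rd10). Of 6 pigment epithelium markers tested 3 fell, and their list summed to 315 to 344 CPM in WT and 188 to 336 in rd10. The 3, chosen after their values were seen, were Rpe65 (-1.18, adjusted p = 0.00362), Rgr (-1.30, 0.00662) and Lrat (-1.26, 0.0161). Those not called were Ttr, the most abundant of the list in rd10 (0.36, adjusted p = 0.327), Tyr (-0.36, 0.488) and Pmel (-0.17, 0.741). For these cells their part in the cone gene counts was not tested. Summed lens markers reached at most 16.4 CPM and summed blood markers at most 4.82 CPM.

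The cone genes did not share the fall of the rod genes. Of the 10, 5 were higher in rd10 and none lower, with an adjusted p under 0.05 (edgeR quasi-likelihood test, Benjamini-Hochberg over 13905 genes); they were Arr3, Gnb3, Pde6c, Opn1mw and Cnga3. Across all genes tested 14.4% were called, 7.12% higher and 7.32% lower. The same 5 had every rd10 library above every WT library, a pattern held by 17.1% of all genes, and Opn1sw had every rd10 library below every WT library, as did 18.6% of all genes. These separations and shares of all genes are on the TMM scale. Per library size alone, the Opn1sw groups overlapped, and Gngt2, Pde6h and Cngb3 also had every rd10 library above every WT library. The share of all genes so separated was not computed on that scale, so these further separations have no background to be read against. The median log2 fold change of the 10 genes was 0.43, against -0.04 for all genes tested. It was 0.67 with library size alone and 0.15 when libraries were scaled to summed counts of inner neurons, namely the bipolar, amacrine and ganglion lists (inner neuron scaling). Those scalings moved the median of all genes to 0.20 and -0.32. In the fit reported, marker lists of other retinal cells had medians of 0.31 (bipolar), 0.22 (amacrine), 0.17 (ganglion), 0.71 (Müller glia) and -0.16 (horizontal). The microglial list stood at 1.89 and the pigment epithelium list at -0.77. With library size alone 17.8% of all genes were called higher and 4.11% lower, and with inner neuron scaling 4.44% and 22.7%. The number called higher was 2 without WT-4 or Rd10-4 and 1 without Rd10-3 or Rd10-5. Calls over all genes dropped in these fits as well, from 2008 with every library to 952 without WT-4 and 885 without Rd10-3. They were 1227 without Rd10-4 and 1317 without Rd10-5, but 3214 without WT-1. Arr3 was called in each of these fits. In whole retina, fewer cells of a type and less RNA per cell cannot be told apart.

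**Figure D1:**
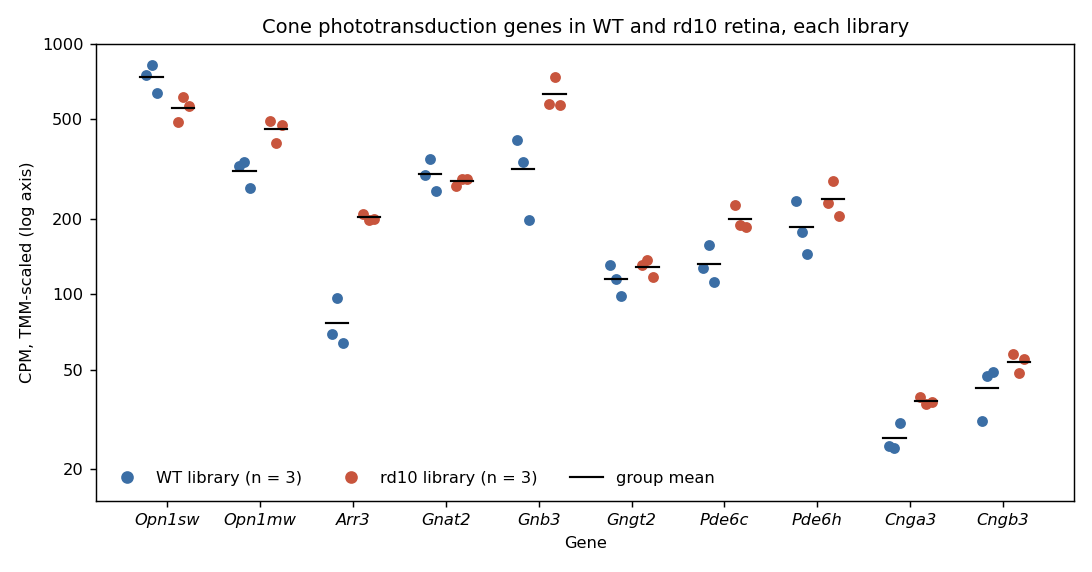
TMM-scaled CPM of each cone gene on a log axis, with 1 point per library (WT blue, rd10 red, n = 3 each) and a bar at the group mean. Arr3, Gnb3, Pde6c, Opn1mw and Cnga3 have all rd10 points above all WT points, Opn1sw has them below, and the other 4 genes overlap.

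In the GRCm38 annotation, the assembly that mm10 names, Opn1sw lies on chromosome 6 from 29376671 to 29388468, Opn1mw on chromosome X from 74127464 to 74150760, Arr3 on chromosome X from 100605497 to 100618493 and Gnb3 on chromosome 6 from 124834240 to 124840275. Gnat2 lies on chromosome 3 from 108092789 to 108101432, Gngt2 on chromosome 11 from 95837216 to 95845734, Pde6c on chromosome 19 from 38132781 to 38183958 and Pde6h on chromosome 6 from 136923832 to 136968865. Cnga3 lies on chromosome 1 from 37214434 to 37263384 and Cngb3 on chromosome 4 from 19280850 to 19510623. All 10 are protein coding genes.

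Promoter sequences from RefSeq (GRCm38.p6) matched 6 of the 10 genes: Opn1sw, Opn1mw, Arr3, Gnat2, Pde6h and Cnga3. The 250 bases before the start are printed for the opsins, whose balance differed, for Arr3, which rose most, and for Gnat2, which was not called. The start is that of a RefSeq transcript, which need not be the outer end of the gene as annotated by GENCODE. For Arr3 both coincide, and for Opn1mw they lie 2 bases apart. The Opn1sw start (29380513) is also that of a GENCODE transcript but lies 7955 bases inside the gene, whose outer end belongs to another transcript. The Gnat2 start lies 277 bases inside, so its window falls within the GENCODE gene. Capitals mark TAATC on either strand (GATTA on the other), the core of the site bound by CRX, the homeodomain factor of photoreceptors.
Opn1sw, chr6:29380514-29380763, minus strand: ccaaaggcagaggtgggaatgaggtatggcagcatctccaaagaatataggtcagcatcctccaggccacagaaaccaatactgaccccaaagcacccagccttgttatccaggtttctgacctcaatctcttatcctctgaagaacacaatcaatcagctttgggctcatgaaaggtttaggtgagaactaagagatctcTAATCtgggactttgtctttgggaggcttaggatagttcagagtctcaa
Opn1mw, chrX:74127216-74127465, plus strand: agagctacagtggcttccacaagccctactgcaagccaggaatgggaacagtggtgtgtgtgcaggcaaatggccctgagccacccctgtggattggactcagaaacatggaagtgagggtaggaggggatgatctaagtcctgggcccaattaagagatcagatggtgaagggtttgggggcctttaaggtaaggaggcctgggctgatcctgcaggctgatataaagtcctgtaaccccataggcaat
Arr3, chrX:100605247-100605496, plus strand: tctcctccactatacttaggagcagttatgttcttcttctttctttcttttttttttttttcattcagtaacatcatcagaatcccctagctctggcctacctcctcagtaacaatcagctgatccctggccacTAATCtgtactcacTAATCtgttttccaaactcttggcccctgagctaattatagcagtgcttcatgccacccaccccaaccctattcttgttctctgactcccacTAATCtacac
Gnat2, chr3:108092816-108093065, plus strand: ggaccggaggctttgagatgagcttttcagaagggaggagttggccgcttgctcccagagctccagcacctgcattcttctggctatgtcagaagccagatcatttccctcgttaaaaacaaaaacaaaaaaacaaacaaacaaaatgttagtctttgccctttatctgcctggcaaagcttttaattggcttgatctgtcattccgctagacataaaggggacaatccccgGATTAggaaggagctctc

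The Arr3 window held 3 TAATC matches, and 0.554% of 32851 promoter windows of the same length held 3 or more. The windows of Opn1sw and Gnat2 held 1 each, and 19.8% of all windows held at least 1. Those of Opn1mw, Pde6h and Cnga3 held none. The longer TAATCC was found only in the Gnat2 window, overlapping its TAATC, and in 6.25% of all windows. AGGTCA, the half-site of nuclear receptors such as the thyroid hormone receptor, had 2 matches in the Opn1sw window and none in the other windows, and 1.36% of all windows held 2 or more. TGCTGA, a half-site of the rod factor NRL, had 1 match, also in the Opn1sw window, where it overlaps an AGGTCA match, and was present in 16.1% of all windows. These matches describe letters in a window and do not show that a factor binds there.

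The balance of the opsins, which capture the photon, differed between the groups, with Opn1mw called higher and Opn1sw not called. Opn1sw, the short-wave opsin, stood at 753, 826 and 636 CPM in WT-1, WT-4 and WT-23 and at 488, 616 and 563 CPM in Rd10-3, Rd10-4 and Rd10-5. All 3 rd10 values lay below the lowest WT value on this scale. Per library size alone they did not: WT-23 had 593 CPM, Rd10-4 662 and Rd10-5 608. The log2 fold change was -0.41 ± 0.14 (SE) and missed the threshold over all genes (adjusted p = 0.0922). Inner neuron scaling brought it past the threshold (-0.69, adjusted p = 0.0122), and so did removal of a trend of counts with transcript GC content (-0.40, adjusted p = 0.0177), under which 16.1% of all genes were called higher and 15.8% lower. Library size alone shrank the value to -0.17 (adjusted p = 0.416). Over 18 alternatives the adjusted p lay between 0.0122 and 0.416.

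Opn1mw, the middle-wave opsin, stood at 327, 337 and 267 CPM in WT and at 493, 402 and 473 CPM in rd10. The groups did not overlap, and Opn1mw rose, with a log2 fold change of 0.56 ± 0.13 (adjusted p = 0.0298). The call held in 12 of 18 alternatives. It was lost when WT-4, Rd10-3 or Rd10-5 was left out, where the adjusted p became 0.0697, 0.138 and 0.095 in that order. Other fits without the call were inner neuron scaling (0.28, adjusted p = 0.178), Y-linked expression as a covariate (0.0671) and a minimum fold of 1.2 (0.0949).

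Within a library the balance of the pigments does not depend on how libraries are scaled. The log2 ratio of Opn1sw to Opn1mw was 1.2, 1.29 and 1.25 in the WT libraries and -0.01, 0.62 and 0.25 in Rd10-3, Rd10-4 and Rd10-5. Opn1sw thus had 2.30 to 2.45 times the CPM of Opn1mw in WT and 0.99 to 1.53 times in rd10, and the SD among libraries was 0.05 in WT and 0.32 in rd10. The difference was -0.97 ± 0.19 (SE, n = 3 per group), with groups that did not overlap (two-sided p = 0.1 by exact permutation, which 3 against 3 cannot go below, and 0.1 adjusted over 10 ratios). Among libraries with Y-linked counts (1 WT, 2 rd10) the ratio differed by -1.18, and among those with Xist (2 WT, 1 rd10) by -0.61. Exons of Opn1sw share 397 bases with those of Calu on the opposite strand, and Calu itself had 147 ± 17 CPM in WT and 152 ± 12 in rd10. The sources used here do not say whether strand was used in counting, so reads from these bases may not be told apart.

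**Figure D2:**
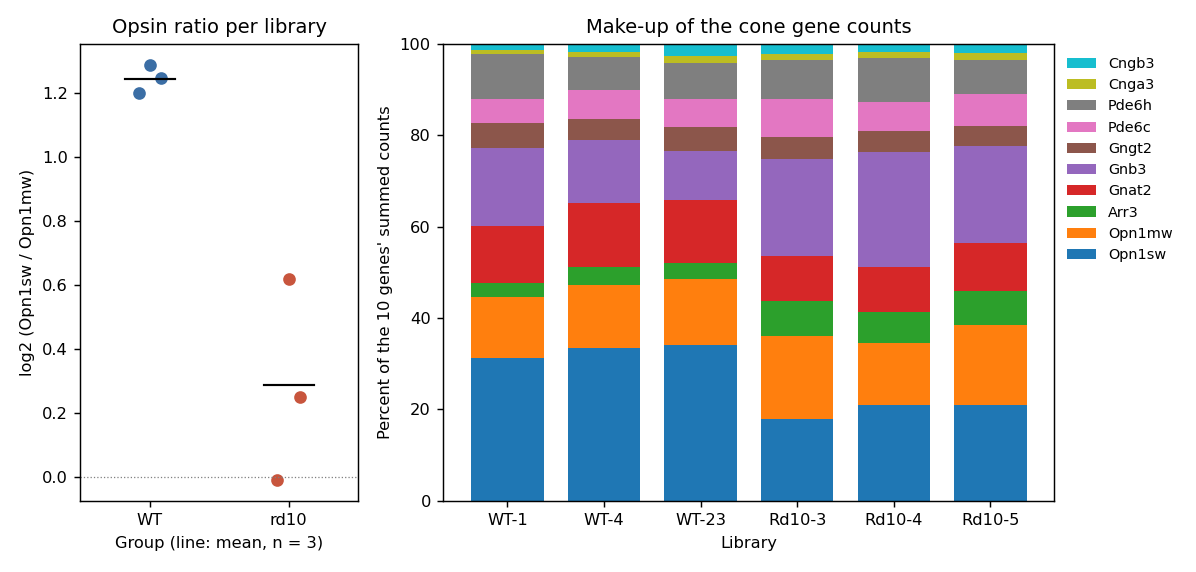
Left, log2 ratio of Opn1sw to Opn1mw in each library with the group mean as a line (n = 3 per group); WT libraries lie between 1.2 and 1.29 and rd10 libraries between -0.01 and 0.62. Right, stacked bars of each gene's percent of the 10 genes' summed counts in each library, where Opn1sw takes 31.2 to 34.2% in WT and 17.9 to 20.9% in rd10.

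Of the transducin subunits, the alpha and gamma genes were not called and the beta gene rose. Gnat2, the alpha subunit that carries the signal from opsin to phosphodiesterase, had 301, 347 and 258 CPM in WT and 270, 290 and 288 CPM in rd10. The rd10 values lay inside the WT range, with a log2 fold change of -0.10 ± 0.13 (adjusted p = 0.666). Gngt2, the gamma subunit, had 131, 115 and 98.3 CPM in WT and 131, 137 and 117 CPM in rd10, again overlapping, with 0.16 ± 0.14 (adjusted p = 0.466). That value was -0.12 under inner neuron scaling, 0.40 with library size alone (adjusted p = 0.0645), and 0.08 to 0.27 with a library left out, the lowest without WT-23 and the highest without WT-1. Gnat2 was called in none of 18 alternatives, nor was Gngt2.

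Gngt2 has also been found in mouse microglia. All 6 microglial markers rose, and their summed level went from between 49.8 and 60.3 CPM in WT to between 150 and 205 CPM in rd10, with none at 0. Exons of Gngt2 share 234 bases with the microglial gene Abi3 on the opposite strand, and Abi3 had 3.36 ± 1.57 CPM in WT and 6.73 ± 1.93 in rd10 (1.01 ± 0.37 on the log2 scale, adjusted p = 0.11). Abi3 was called with library size alone (0.0384), DESeq2 (0.0474), the GC trend removed (0.0045) and without WT-1 (0.0219), and ran from 0.72 to 1.37 with a library left out. The part of microglia in the Gngt2 counts was not tested.

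Gnb3, the beta subunit, had 415, 337 and 198 CPM in WT-1, WT-4 and WT-23 and 576, 741 and 573 CPM in the rd10 libraries. The rd10 values all exceeded the WT values, which themselves spanned more than 2-fold. The log2 fold change was 0.99 ± 0.25 and passed (adjusted p = 0.0368). Removing the GC trend gave 0.97 (adjusted p = 0.00036) and inner neuron scaling 0.73 (adjusted p = 0.0379). Any one of WT-4, Rd10-3, Rd10-4 and Rd10-5 ended the call when it was omitted (adjusted p between 0.0698 and 0.106), as did the Y-linked covariate (0.067) and a minimum fold of 1.2 (0.0675). Between WT-1 and WT-23 alone Gnb3 differed by 1.07 on the log2 scale.

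ON bipolar cells use Gnb3 as well, in the G protein behind the receptor mGluR6. Of 4 genes of that pathway, Trpm1, the transduction channel, rose by 0.51 ± 0.11 (adjusted p = 0.0153), while Grm6, the receptor, had 0.34 ± 0.18, Gnao1, the G protein alpha subunit, 0.30 ± 0.10 and Gng13, the gamma subunit paired with Gnb3 in these cells, 0.23 ± 0.18 (adjusted p = 0.244, 0.0995 and 0.427). Grm6 was called with library size alone (0.0429), with the GC trend removed (0.0195) and without WT-1 (0.0419), and Gnao1 with upper quartile factors (0.0476), library size alone (0.0115) and the GC trend removed (0.0152). Trpm1 lost its call under a minimum fold of 1.2 (0.0662) and in fits without WT-4 (0.0732), Rd10-3 (0.0696), Rd10-4 (0.0596) or Rd10-5 (0.0559). It was not called under inner neuron scaling either (0.23, adjusted p = 0.167), but Trpm1, Grm6 and Gng13 are among the genes that set that scaling, which draws them towards 0 by construction. The 10 bipolar markers summed to between 1750 and 2030 CPM in WT and between 2270 and 2380 CPM in rd10, with 3 called higher and none at 0. Their part in the Gnb3 counts was not tested.

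The phosphodiesterase hydrolyses cGMP. Pde6c, its catalytic subunit in cones, had 127, 157 and 112 CPM in WT and 228, 189 and 186 CPM in rd10, without overlap, and rose by 0.60 ± 0.15 (adjusted p = 0.0362). The call held in 11 of 18 alternatives. Omitting WT-23 gave an adjusted p of 0.0654, omitting Rd10-3 one of 0.161, omitting Rd10-4 one of 0.0713 and omitting Rd10-5 one of 0.0709. Inner neuron scaling lowered the value to 0.32 (adjusted p = 0.178) and the Y-linked covariate to 0.53 (0.0666), and a minimum fold of 1.2 gave an adjusted p of 0.101.

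Pde6h, the inhibitory subunit, had 236, 177 and 145 CPM in WT and 231, 284 and 205 CPM in rd10. The groups overlapped, and the log2 fold change of 0.37 ± 0.20 was not called (adjusted p = 0.252). It passed in 1 of 18 alternatives, without WT-1 (0.57, adjusted p = 0.0327). The value was 0.24 without WT-23, 0.23 without Rd10-4, 0.10 with inner neuron scaling and 0.61 with library size alone (adjusted p = 0.0512). A stretch of 136 bases of its exons overlaps Arhgdib, a gene of blood and immune cells, on the opposite strand; Arhgdib had 12.3 ± 3.1 CPM in WT and 20.6 ± 1.0 in rd10 (adjusted p = 0.0358, a call held in 11 of 18 alternatives).

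The channel subunits were the least abundant of the set. Cnga3, the main pore-forming subunit, had 24.9, 24.4 and 30.6 CPM in WT and 38.9, 36.6 and 37.3 CPM in rd10. The groups did not overlap, and the rise of 0.50 ± 0.13 passed narrowly (adjusted p = 0.0437). It held in 9 of 18 alternatives, and among the fits that leave out 1 library only without WT-23 (0.63, adjusted p = 0.0182). The other 5 such fits gave an adjusted p of 0.0546 without WT-1, 0.189 without WT-4, 0.177 without Rd10-3, 0.105 without Rd10-4 and 0.121 without Rd10-5. Inner neuron scaling gave 0.20 (0.381), removal of the GC trend 0.45 (0.0598) and the Y-linked covariate 0.52 (0.0818), and a minimum fold of 1.2 an adjusted p of 0.144.

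Cngb3, the modulatory channel subunit, had 31.2, 47.2 and 49.1 CPM in WT and 57.6, 48.6 and 55.2 CPM in rd10. WT-1 stood well below the other WT libraries, and WT-23 overlapped with Rd10-4. The log2 fold change of 0.34 ± 0.18 was not called (adjusted p = 0.255). It was 0.16 without WT-1, 0.04 with inner neuron scaling and 0.58 with library size alone (adjusted p = 0.0668), and with the GC trend removed it was 0.50 and passed (adjusted p = 0.00416).

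Arr3, the cone arrestin, showed the largest change of the 10 and the closest agreement within a group. It had 69.8, 97.0 and 63.9 CPM in WT and 209, 199 and 201 CPM in rd10, a coefficient of variation of 23.0% in WT and 2.61% in rd10. Every rd10 library held more than 2 times the CPM of any WT library. The rise was 1.40 ± 0.17 on the log2 scale (adjusted p = 0.0015), or 2.63-fold. It was called in all 18 alternatives, from 1.11 with inner neuron scaling to 1.64 with library size alone, with adjusted p at most 0.0117. Among libraries with Y-linked counts the rd10 mean exceeded WT by 1.07 on the log2 scale and among those with Xist by 1.57, where each kind has 1 or 2 libraries a group and no test was run. The other 4 called genes were positive in both kinds too: Opn1mw differed by 0.52 and 0.44, Gnb3 by 0.77 and 1.37, Pde6c by 0.39 and 0.66 and Cnga3 by 0.64 and 0.41. For the called genes every rd10 library lay above every WT library, so positive values in both kinds had to follow and add no support.

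**Figure D3:**
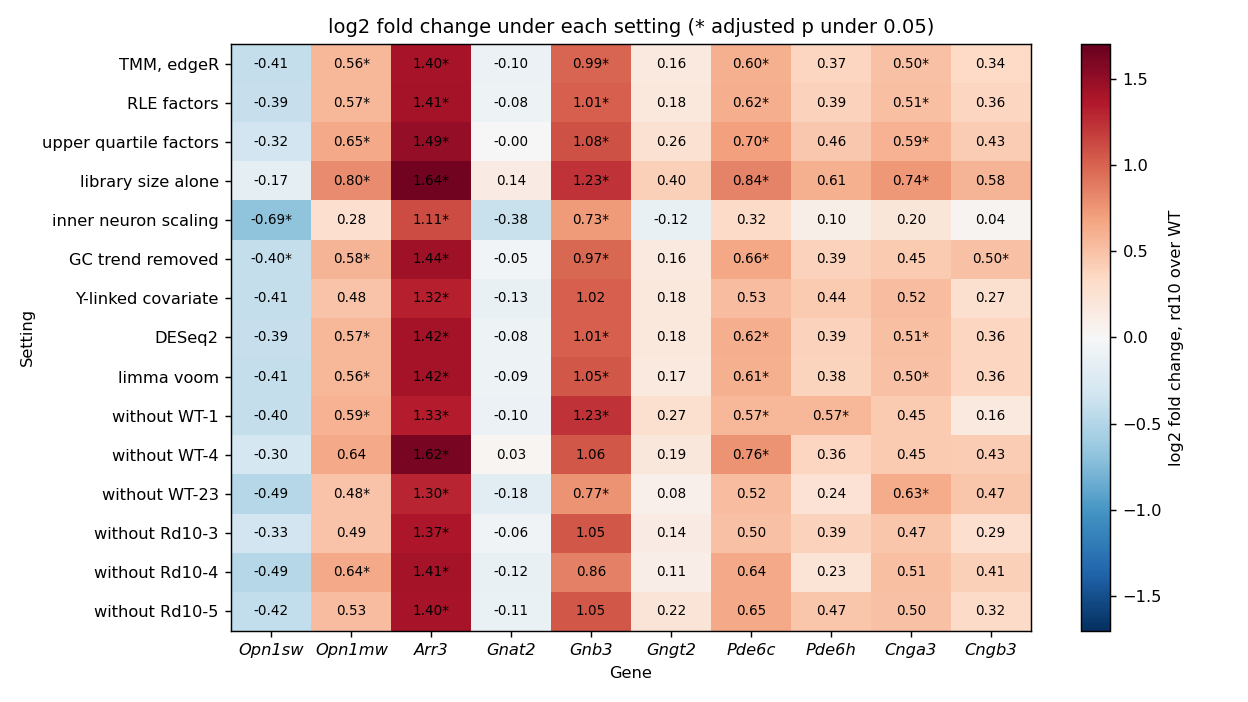
log2 fold change of each cone gene (columns) under 15 settings (rows, the first being TMM with edgeR); red is higher and blue lower in rd10, and an asterisk marks an adjusted p under 0.05. Arr3 carries an asterisk in every row, from 1.11 to 1.64, Opn1sw is negative in every row shown, and Gnat2 lies between -0.38 and 0.14 with no asterisk.

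The coefficient of variation was higher in WT than in rd10 for each of the 10 genes, which share their libraries and so are not separate observations. WT-23 was the lowest WT library for 8 of the genes and the highest for the other 2, Cnga3 and Cngb3.

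As a share of the 10 genes' summed counts, Opn1sw went from 33.0 ± 1.6% in WT to 19.9 ± 1.7% in rd10 (SD, n = 3 per group). Gnb3 went from 13.8 ± 3.3% to 22.5 ± 2.3%, Arr3 from 3.42 ± 0.52% to 7.28 ± 0.48% and Gnat2 from 13.5 ± 0.9% to 10.2 ± 0.5%. Pde6c went from 5.90 ± 0.57% to 7.22 ± 1.01%. None of these 5 shares overlapped between the groups, whereas those of Opn1mw, Gngt2, Pde6h, Cnga3 and Cngb3 did. Pde6c parted narrowly, with 6.37% in WT-4 and 6.42% in Rd10-4. Such shares exist only within the 10 genes, so the separations have no background over all genes. Shares are parts of the same total, so a rise of some genes lowers the shares of the rest. In CPM the groups overlapped for Gnat2 (log2 fold change -0.10, edgeR adjusted p = 0.666) and did not for Opn1mw and Cnga3. Together the 10 genes took 0.218, 0.228 and 0.173% of all counts in WT and 0.300, 0.316 and 0.291% in rd10, and without these rod counterparts in the denominator 0.218 ± 0.031% and 0.308 ± 0.012%.

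Levels of different genes were compared per kilobase of exon. In CPM per kilobase of the union of GENCODE exons, Opn1sw was highest in WT (289 ± 37), followed by Opn1mw (199 ± 24), Gnb3 (120 ± 42), Gnat2 (101 ± 15), Gngt2 (61.2 ± 8.7), Pde6c (44.5 ± 7.7), Arr3 (32.7 ± 7.5), Pde6h (23.7 ± 5.9), Cngb3 (9.02 ± 2.09) and Cnga3 (6.73 ± 0.87). The ranges of Gnb3 and Gnat2 overlapped, as did those of Gngt2 and Pde6c, Pde6c and Arr3, Arr3 and Pde6h, and Cngb3 and Cnga3. In rd10 the order began with Opn1mw (292 ± 31), Gnb3 (239 ± 37) and Opn1sw (217 ± 25), the first overlapping in range with Gnb3 and Gnb3 with Opn1sw, and Arr3 (86.0 ± 2.3) stood above Gngt2 and Pde6c. Such levels depend on the gene model. In the authors' deposited FPKM, with 1 value per group, the opsins stood the other way round in rd10. There Gnb3 had 501.9, Opn1sw 455.1 and Opn1mw 114.7 in rd10, and in WT 252.8, 605.4 and 78.2 in that order. Which gene leads in rd10 thus depends on the measure. With the lengths of RefSeq-matched transcripts, Gngt2 stood at 201 ± 29 in WT, below Opn1mw and above Gnb3, and Cnga3 above Cngb3, while Opn1sw had the highest mean in WT and stood below Opn1mw and Gnb3 in rd10. On these lengths the WT ranges of Opn1sw and Opn1mw overlapped, as did those of Opn1mw and Gngt2, Gngt2 and Gnb3, and Cnga3 and Cngb3.

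Rods and cones use paralogous subunits, so each of the 8 cone genes other than the opsins was set beside its rod counterpart, Pde6c beside both rod catalytic subunits. All 9 rod counterparts fell, with a median log2 fold change of -2.09 and values from -2.26 ± 0.17 for Cngb1, a rod channel subunit, to -0.77 ± 0.14 for Sag, the rod arrestin. The call of Sag was lost without WT-4 (-0.70, adjusted p = 0.0543). Of the 9, 1 is the rd10 gene itself, Pde6b.

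In every pair the lowest rd10 value of the cone-to-rod ratio lay above the highest WT value. Each rod counterpart already had every rd10 library below every WT library. The separation of the ratios thus largely restates the fall of the rod genes and is not further support. Relative to the rod transducin gene Gnat1, the log2 ratio of Gnat2 was -6.50, -6.21 and -6.52 in WT and -4.13, -4.25 and -4.59 in rd10, a difference of 2.08 ± 0.17 (SE, n = 3 per group). The largest differences were those of Gnb3 to Gnb1 (3.18 ± 0.41) and Pde6c to Pde6b (2.73 ± 0.31), and the smallest that of Gngt2 to Gngt1 (1.91 ± 0.41). Arr3 to Sag differed by 2.19 ± 0.19, a value made of the largest rise among the cone genes and the smallest fall among the rod genes. Groups did not overlap for any of the 9 pairs (two-sided p = 0.1 by exact permutation for each, the lowest this design allows, and 0.1 adjusted over 10 ratios).

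**Figure D4:**
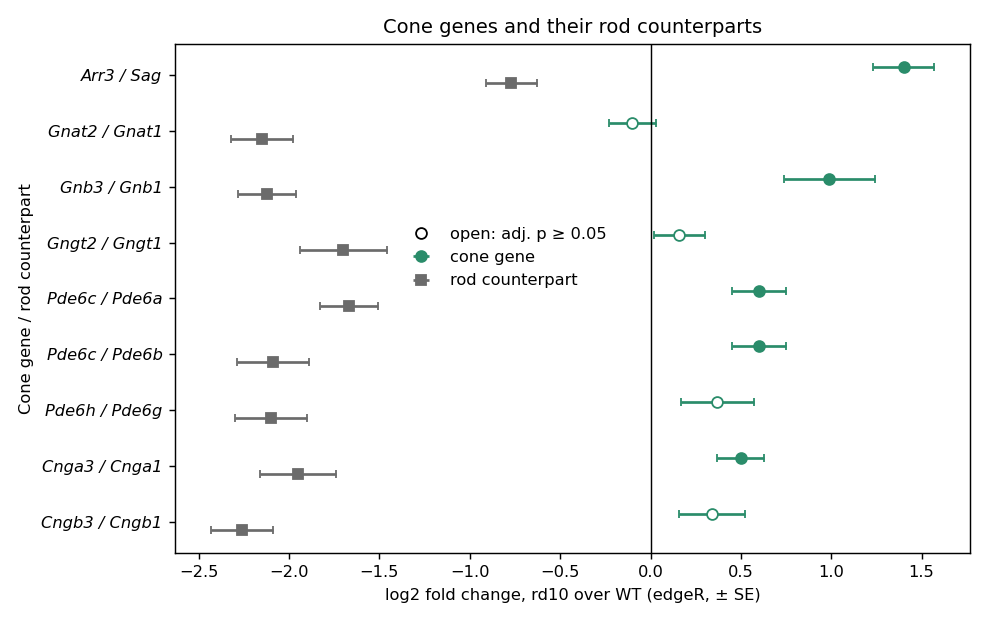
log2 fold change of rd10 over WT with its SE for each cone gene other than the opsins (green circles) and its rod counterpart (grey squares); open symbols have an adjusted p of 0.05 or more. The rod counterparts lie between -2.26 and -0.77, and the cone genes between -0.10 and 1.40.

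Of 12 other genes of the photoreceptor cascade 11 fell and 1 was not called, with a median log2 fold change of -1.51. Those that fell included the opsin kinase gene Grk1 (-1.49 ± 0.18), the genes of the GTPase-accelerating complex Rgs9 (-1.05 ± 0.18), Rgs9bp (-1.83 ± 0.22) and Gnb5 (-1.08 ± 0.14), the guanylate cyclase genes Gucy2e (-1.46 ± 0.13) and Gucy2f (-2.45 ± 0.29), and the cyclase activator genes Guca1a (-1.50 ± 0.16) and Guca1b (-2.36 ± 0.21). The calcium sensor gene Rcvrn (-1.52 ± 0.21), the transducin-binding phosducin gene Pdc (-1.60 ± 0.21) and the rod exchanger gene Slc24a1 (-2.34 ± 0.22) fell as well. The 1 not called was Slc24a2, which encodes a sodium, calcium and potassium exchanger reported in cones. It had 160 ± 32 CPM in WT and 190 ± 29 in rd10 (0.25 ± 0.18, adjusted p = 0.39, and -0.05 with inner neuron scaling).

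Of 9 transcription factor genes of photoreceptors, 5 fell and none rose. The rest, not called, were Otx2 (-0.30 ± 0.10, adjusted p = 0.0899), Neurod1 (-0.40 ± 0.12, 0.0551), Rxrg (0.03 ± 0.21, 0.942) and Sall3 (0.20 ± 0.22, 0.589). Otx2 and Neurod1 were called lower with inner neuron scaling (adjusted p = 0.0173 and 0.0158) and with the GC trend removed (0.0217 and 0.0231). Nrl (-2.54 ± 0.21) and Nr2e3 (-2.08 ± 0.22) set rod identity, and Crx (-1.24 ± 0.14) acts in both photoreceptor types. Thrb, the thyroid hormone receptor that in mouse cones promotes Opn1mw and restrains Opn1sw, had 86.6 ± 12.8 CPM in WT and 56.8 ± 10.4 in rd10 (-0.61 ± 0.17, adjusted p = 0.047), and Rorb, which takes part in Opn1sw expression, 258 ± 9 and 181 ± 20 (-0.51 ± 0.12, adjusted p = 0.0238). The calls of Thrb and Rorb were both lost with library size alone (adjusted p = 0.159 and 0.16) and without WT-4 (0.152 and 0.128), WT-23 (0.0996 and 0.0501), Rd10-3 (0.193 and 0.0988) or Rd10-4 (0.139 and 0.0857). Upper quartile factors (0.0703 and 0.0504) and a minimum fold of 1.2 (0.125 and 0.0921) ended them as well, and for Thrb so did the Y-linked covariate (0.0913), RLE factors (0.0531) and a minimum mean of 5 CPM (0.055). Of 4 other cone genes none was called by edgeR, the most abundant being Ccdc136 (0.12 ± 0.14, adjusted p = 0.622) and Kcne2 (-0.32 ± 0.10, adjusted p = 0.0809). Under inner neuron scaling Kcne2 passed (-0.61, adjusted p = 0.0143) and Ccdc136 stood at -0.16.

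The authors' deposited table of changed genes lists 6 of the 10 cone genes. In it Opn1sw has 605.4 FPKM in WT and 455.1 in rd10 with a log2 fold change of -0.41 and a p of 0.0114, not stated to be adjusted. Opn1mw has 78.2 and 114.7 FPKM, Arr3 36.6 and 96.4, Gnb3 252.8 and 501.9, Pde6c 31.5 and 47.8 and Cnga3 8.8 and 12.4 in the authors' deposited table. It holds only genes with p under 0.05, and Gnat2, Gngt2, Pde6h and Cngb3 are not among them.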

How the data were processed

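The authors deposited a table of raw gene counts, whole numbers with no normalization, per the file headers. They also deposited FPKM values (1 per group), log2 fold changes and p-values of selected genes, per the file headers, used as they stand. A smaller deposited selection holds none of the 10 genes and was not used here. The submitters' processing notes name mm10, edgeR, HTSeq and TopHat2 2.1.0 without role or order, and name no annotation. Total RNA (1 µg) went into stranded libraries, per the labels' protocols.

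The name of each count column gave its group. Of 24062 genes, 13905 passed filterByExpr and were tested with edgeR's quasi-likelihood method (version 4.0.16 in R 4.3.3), using TMM scaling, robust dispersions, a model of genotype alone and a Benjamini-Hochberg threshold of 0.05 over all of them. The script was tested on simulated data. CPM errors are SDs of 3 libraries; a fold change has the standard error of the model. Ratios used log2 CPM with a prior count of 2 and exact permutation tests in scipy 1.17.1. GENCODE M21 (GRCm38) gave gene positions, exon lengths and transcript GC content. The 18 alternatives comprised DESeq2 1.42.0, limma 3.58.1 voom, 4 other scalings, 2 filters, a test against a fold of 1.2, a non-robust fit, removal of a GC trend (95.7% of tested genes had a value), a Y-linked covariate and each library left out. RefSeq-matched lengths and values within libraries with Y-linked or Xist counts were added after seeing the data. The genes named were the 10 cone genes, 9 rod counterparts of those other than the opsins (1 further gene of the rule is not reported here), called members of the fixed lists (the 2 most abundant where none was called), partner genes in bipolar cells and microglia, and genes whose exons overlap a cone gene. The 10 genes and all lists were chosen with earlier results of these data known; so were the promoter motifs.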

Additional observations from a re-analysis of the deposited data

How the results depend on the processing

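The number of cone genes called higher, 5 in the fit reported, was 2 with inner neuron scaling, 1 against a fold of 1.2 and 1 with the Y-linked covariate, and ran from 1 to 5 with a library left out. The number called lower was 0 in the fit reported (edgeR), 1 with inner neuron scaling and 1 with the GC trend removed, Opn1sw in both; DESeq2 and limma voom called none lower, and Opn1sw had an unadjusted p of 0.0192. Without a library it stayed at 0. Regulators called lower, 5 in the fit reported, were 3 with upper quartile factors, library size alone or a fold of 1.2, and 3 to 6 with a library left out. Among other cone genes 1 was called with inner neuron scaling, 1 with the GC trend removed, and 0 to 1 with a library left out. All genes called, 2008 in the fit reported, were 3043 with library size alone, 3780 with inner neuron scaling, 1285 against a fold of 1.2, 4429 with the GC trend removed, and 885 to 3214 with a library left out. Signs turned for Gnat2 with library size alone (0.14) and without WT-4 (0.03, the range with a library left out being -0.18 to 0.03), for Gngt2 (-0.12), Slc24a2 (-0.05), Ccdc136 (-0.16) and Gng13 (-0.05, itself among the genes that set it) with inner neuron scaling, and for Calu with inner neuron scaling (-0.24) and without WT-1 (-0.03, range -0.03 to 0.16), none of them called in either fit. The cause was not tested. The opsin ratio ran from -1.13 to -0.82 with a library left out. No paired analysis was possible because the numbers in the column names are not the replicate numbers of the labels, and the groups share only 1 of them.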
